A study of Homo sapiens with 8 samples.

Results

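The endothelin system was examined in NS-SV-AC, an immortalised human salivary gland acinar line, through every probe set paired with the symbol EDN1, EDN2, EDNRA, EDNRB or ECE1. Of the 5 genes, 4 had probe sets (of 18239 genes on the array), with 12 probe sets in all: 2 for EDN1, 1 for EDN2, 4 for EDNRB and 5 for ECE1. EDNRA was not analysed here. In RefSeq on GRCh38.p14, EDN1 lies at chr6:12230516-12297194, EDN2 at chr1:41478775-41484683, EDNRB at chr13:77895487-77975527 and ECE1 at chr1:21217250-21345504; the position of each probe set along its transcript is not given in the sources used here. A further EDNRB probe set, shared with SFTPB, is described separately. The genes had been chosen with their differences between TNF-α and BSA known, so those differences are given as values with no test.

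Cells received TNF-α, an inflammatory cytokine, at 20 ng/ml, or bovine serum albumin (BSA), the control protein, for 2, 6, 12 or 24 h. Each combination was measured on 1 array, giving 4 TNF-α arrays and 4 BSA arrays without replicates. Levels are on the log2 scale, made with RMA (an array normalisation) from 10 ng of total RNA, labelled from the 3′ end of transcripts, and differences are TNF-α minus BSA at the same time. Every array came from the same line, so the data describe 1 cell line, and nothing in the labels says whether the 8 RNA samples came from separate cultures.

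Endothelins are short peptides cut from larger precursors. Furin-type proteases release the intermediate big endothelin from the precursor, and endothelin-converting enzyme 1, encoded by ECE1, trims it to the active form. The peptides act on the G protein-coupled receptors ETA (EDNRA) and ETB (EDNRB), and endothelin-1, the product of EDN1, is best known as a vasoconstrictor made by endothelial cells. Epithelial cells can also make it. The EDN1 promoter is known for an AP-1 site, a GATA site and a hypoxia element close to the start of transcription.

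The bases before the start of EDN1 and of EDN2 are shown because these paralogues, both endothelin precursors, differed in the size of their values under TNF-α. The sequences are RefSeq's, on GRCh38.p14, 250 bases before the start and written 5′ to 3′ on the gene's strand. EDN1 is chr6:12290111-12290360 on the plus strand, the start nearest the gene's end of 3 listed. EDN2 is chr1:41484684-41484933 on the minus strand, its only start listed. Capitals mark matches on either strand to the AP-1 motif TGACTCA, its known variant TGACTAA, the GATA motif AGATAA, the hypoxia element core ACGTG, the TATA box TATAAA, and a loose κB pattern. That pattern is GGG and CC with 5 bases of any kind between them.
EDN1: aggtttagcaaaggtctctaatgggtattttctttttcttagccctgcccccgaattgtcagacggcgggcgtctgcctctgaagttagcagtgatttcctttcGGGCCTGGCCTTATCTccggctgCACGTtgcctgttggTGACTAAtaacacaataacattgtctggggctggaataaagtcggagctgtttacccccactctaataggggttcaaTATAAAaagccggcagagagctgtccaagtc
EDN2: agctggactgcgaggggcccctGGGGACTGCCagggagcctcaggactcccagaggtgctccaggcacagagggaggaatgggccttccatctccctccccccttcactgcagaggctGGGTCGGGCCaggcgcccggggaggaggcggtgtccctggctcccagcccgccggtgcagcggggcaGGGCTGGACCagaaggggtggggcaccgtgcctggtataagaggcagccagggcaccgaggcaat
The EDN1 window held the κB pattern from 146, the GATA motif (reversed) from 136, the hypoxia core (reversed) from 123, the AP-1 variant from 108 and the TATA box from 31 bases before the start, with the κB and GATA matches next to each other and no overlap. Of the other EDN1 starts listed, the window chr6:12287769-12288018 held only the hypoxia core and the κB pattern, and chr6:12289764-12290013 held no match. The EDN2 window held 3 matches to the loose κB pattern and none to the others. Only exact runs were searched, so the run tataag near the end of the EDN2 window was not marked. Over all 35116 windows of this length, the AP-1 variant was present in 1.62%, the AP-1 motif in 4.2%, the GATA motif in 9.17%, the TATA box in 10.7%, the hypoxia core in 18.5% and the κB pattern in 54.4%. The motifs were picked with the known EDN1 sites in view, and a match is a run of letters and not a measured site.

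RNA quality differed on 1 array. The control probe sets for the 3′ and 5′ ends of GAPDH lay 6.28 apart with TNF-α at 24 h and 0.20 to 0.37 apart elsewhere, and a wide gap of this kind is typical of degraded RNA. For ACTB the gap was 6.88 on that array and 2.59 to 3.47 on the others, widest among those with BSA at 24 h. Values at 24 h are therefore given beside those of 2 to 12 h. NFKBIA, the NF-κB inhibitor that TNF-α induces, read 11.21, 11.32, 10.79 and 10.35 on the TNF-α arrays at 2, 6, 12 and 24 h, against 7.79, 8.20, 7.64 and 6.96 on the BSA arrays, above every BSA array at each time. Of 10 measured markers of salivary acini, 8 had a mean level under the median probe set, among them AQP5, BHLHA15, PRB1, MUC7 and STATH, as did KRT7, KRT19, EPCAM and CDH1 of 6 epithelial and ductal markers. Of 6 fibroblast markers COL1A1 and COL1A2 were under it and COL3A1, DCN, LUM and PDGFRA above, and of 6 measured basal and myoepithelial markers KRT14 and OXTR were under it and the other 4 above. The labelled acinar type thus had 2 of 6 epithelial and ductal markers (KRT8 and KRT18) above the median probe set, at a mean over the 8 arrays. Of the acinar markers 2 of 10 were above it. The array medians were 4.33 to 4.36, and a level above them does not by itself show that a gene was expressed.

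EDN1 was the member with the widest gap between treatments. Its brighter probe set (11726023_a_at) read 7.72, 8.07, 6.69 and 4.28 on the TNF-α arrays at 2, 6, 12 and 24 h, against 3.96, 3.80, 3.66 and 3.44 on the BSA arrays. All TNF-α values lay above all BSA values, and the narrowest distance between the groups was 0.32, between TNF-α at 24 h and BSA at 2 h. The differences of 3.76, 4.27, 3.03 and 0.83 correspond to 13.6, 19.3, 8.16 and 1.78-fold. Their mean was 2.97 ± 1.52 (SD, 4 times), and 3.69 ± 0.62 over 2, 6 and 12 h (SD, 3 times). In bulk RNA, fewer cells making a transcript and less transcript per cell cannot be told apart.

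The other EDN1 probe set (11726024_at) read 7.0, 7.62, 5.92 and 6.22 on the TNF-α arrays, against 3.90, 3.53, 3.91 and 3.37 on the BSA arrays. Its groups did not overlap either, and lay at least 2.02 apart. Both probe sets were highest with TNF-α at 6 h, then at 2 h. After that their order parted: 12 h came before 24 h on the first, and 24 h before 12 h on the other. The difference was 3.10, 4.09, 2.02 and 2.84 on the second, so the probe sets were 0.66, 0.18, 1.01 and 2.01 apart at 2, 6, 12 and 24 h.

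Across the 11822 genes with more than 1 probe set, the median distance between the highest and the lowest difference of a gene's probe sets was 0.18, 0.24, 0.24 and 0.63 at 2, 6, 12 and 24 h. A distance at least as wide as that of EDN1 was found in 1.23%, 60.9%, 2.18% and 12.8% of these genes. Disagreement was thus common at 24 h, on the array with the 6.28 GAPDH gap, and the part of RNA quality in the EDN1 values at 24 h was not tested. On the brighter probe set EDN1 had the 10th, 15th and 36th largest difference of 18239 genes at 2, 6 and 12 h, and the 1674th at 24 h.

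**Figure D1:**
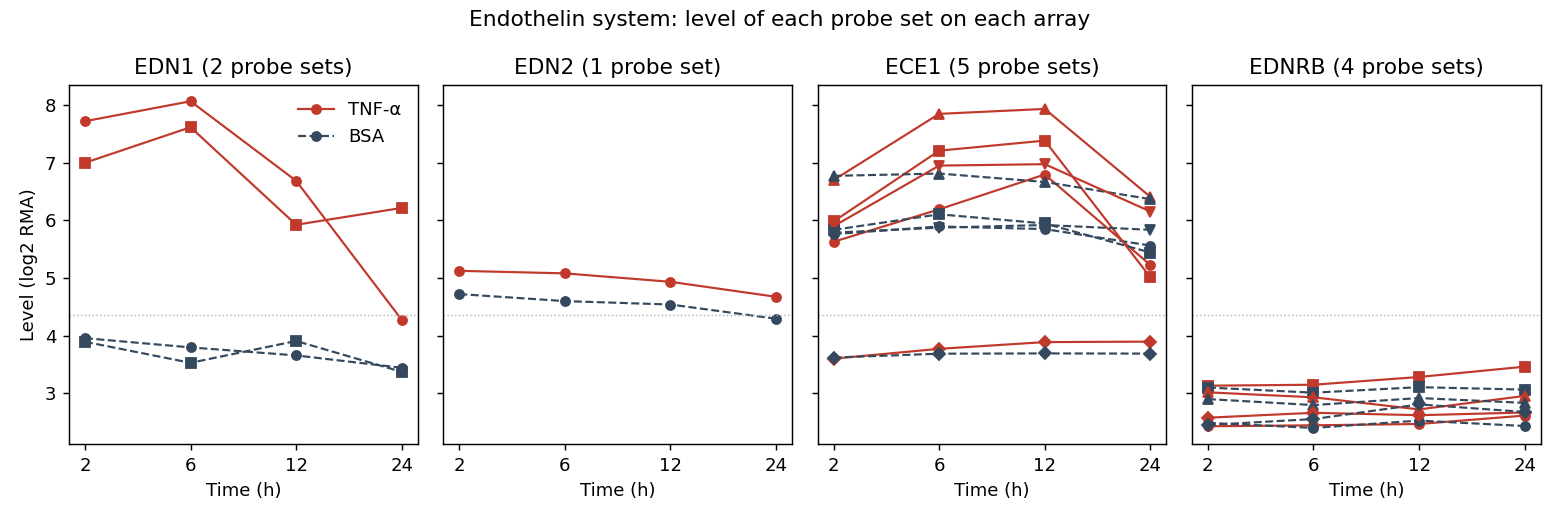
Level (log2 RMA) of each of the 12 member probe sets on each array, by time in hours at even steps, with TNF-α as solid red lines and BSA as dashed dark blue lines; each marker shape is 1 probe set and 1 array per point, and the dotted line is the mean of the 8 array medians. EDN1 with TNF-α lies between 4.28 and 8.07 and EDN1 with BSA between 3.37 and 3.96, ECE1 parts from BSA at 6 and 12 h, and EDNRB stays under 3.5 on every array.

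On the BSA arrays both EDN1 probe sets sat low. The brighter one stood at the 41.5th, 37.8th, 34.4th and 27.6th percentile of all probe sets of its array at 2, 6, 12 and 24 h, against the 86.5th, 89.0th, 77.6th and 48.1st on the TNF-α arrays. Probe sets differ in brightness, so a percentile shows only how dim a reading was. Near the background the size of a log2 difference is uncertain, since a lower true level would not read lower.

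EDN2, the other precursor measured, had 1 probe set (11731286_at) and a small, even difference. It read 5.13, 5.08, 4.94 and 4.68 on the TNF-α arrays at 2, 6, 12 and 24 h, against 4.72, 4.60, 4.54 and 4.29 on the BSA arrays. Each TNF-α array was above the BSA array of its time, by 0.40, 0.48, 0.39 and 0.38, with a mean of 0.41 ± 0.05 (SD, 4 times). The groups overlapped, since TNF-α at 24 h read below BSA at 2 h by 0.05. Being higher in 4 of 4 pairs was not rare, with 12.6% of all genes so. At 24 h the median gene was itself 0.20 higher with TNF-α, so that the EDN2 difference relative to it was smaller there than at the earlier times.

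EDNRB, which encodes the ETB receptor, read low with either treatment. Its brightest probe set (11732906_a_at) had 3.13, 3.15, 3.28 and 3.46 on the TNF-α arrays, against 3.10, 3.01, 3.11 and 3.07 on the BSA arrays. The groups just failed to overlap, by 0.03, with a difference of 0.40 at 24 h and 0.03, 0.14 and 0.18 before that. The remaining 3 EDNRB probe sets read 2.43 to 3.02 on the TNF-α arrays and 2.40 to 2.92 on the BSA arrays, with overlapping groups. On every array the 4 EDNRB probe sets stood at or under the 23.1st percentile, so a receptor transcript was not detectable above dim readings, which does not show that it is absent. The probe set shared by EDNRB and SFTPB read 4.09 to 4.46 on the TNF-α arrays and 4.01 to 4.28 on the BSA arrays, and reports on either gene.

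ECE1, the converting enzyme, differed later than EDN1. Its brightest probe set (11737800_a_at) read 6.70, 7.85, 7.93 and 6.41 on the TNF-α arrays at 2, 6, 12 and 24 h, against 6.77, 6.81, 6.67 and 6.37 on the BSA arrays. TNF-α at 6 and 12 h stood above all other arrays, and at 2 and 24 h the treatments lay close together. The differences were −0.07, 1.04, 1.27 and 0.04, or 2.05-fold at 6 h and 2.41-fold at 12 h, and ranked 235th and 172nd of 18239 genes at those times. At 24 h the value again comes from the array with the wide GAPDH gap.

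The ECE1 probe sets did not all show this. Those named 11716256_x_at and 11739461_a_at were 1.10 and 1.08 higher at 6 h and 1.44 and 1.06 higher at 12 h, so 3 of 5 passed 2-fold at both times. Another, 11716255_a_at, had differences of 0.30 and 0.95 at 6 and 12 h. The dim one, 11737801_a_at, read 3.60 to 3.90 on the TNF-α arrays and 3.62 to 3.69 on the BSA arrays and was 0.08 and 0.20 higher at 6 and 12 h. At 2 h the 5 probe sets lay between −0.13 and 0.15. At 24 h they lay between −0.43 and 0.32. No ECE1 probe set had groups free of overlap over the 4 times.

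Over the 12 member probe sets, 2, 5, 5 and 1 were at least 2-fold higher with TNF-α at 2, 6, 12 and 24 h, where 0.389%, 1.18%, 1.11% and 4.64% of all 45253 probe sets were. In 3 of the 12 the lowest TNF-α array was above the highest BSA array, as in 3.10% of all probe sets. These contrasts are those the genes were chosen on. Probe sets of a gene share its transcripts and are not replicates. Time courses of EDN1 and ECE1 were set side by side without a test of their difference.

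**Figure D2:**
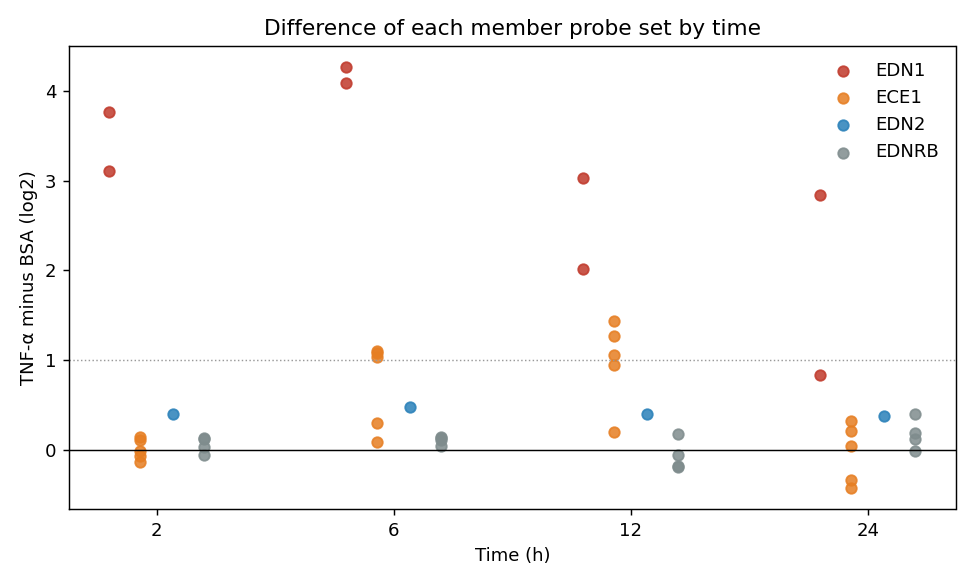
TNF-α minus BSA (log2) of each member probe set at 2, 6, 12 and 24 h, 1 point per probe set, coloured by gene, with a dotted line at 2-fold (1 on the log2 scale). The EDN1 points lie at 3.10 to 4.27 at 2 and 6 h, 3 of 5 ECE1 points lie past 1 at 6 and at 12 h, and the EDN2 points stay between 0.38 and 0.48.

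Whether the members drifted in culture without TNF-α was asked of the 4 BSA arrays alone. The BSA levels also enter the differences the genes were chosen on, so the slopes of the members are not independent of that choice. They are therefore given as values with no test. With limma's slope on log2 of the hours, EDN1 was −0.14 ± 0.04 per doubling of time (SE, 4 arrays). EDN2 had a slope of −0.11 ± 0.04, ECE1 of −0.11 ± 0.05 and EDNRB of −0.0034 ± 0.04, in the same limma fit. Over all genes, members included, none passed. With limma 0 of 18239 genes (0%) had an adjusted p under 0.05, and 759 (4.16%) an unadjusted p under 0.05. The fit had 2 residual degrees of freedom, and its p-values measure the spread between single arrays.

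Among the remaining genes of endothelin production and breakdown, none passed the test of TNF-α against BSA. That test was limma with time as a factor, at an adjusted p under 0.05, and it called 3 of 18239 genes on all 8 arrays (0.0164%, all higher with TNF-α). With the pair at 24 h left out it called 67 (0.367%), of which 58 were higher (0.318%) and 9 lower (0.0493%) with TNF-α. At an unadjusted p under 0.05 those fits held 1369 genes (7.51%) and 2554 genes (14.0%). The arrays had no replicates, so the SE and p-values of both fits measure how evenly a difference held over the times. The pairs counted beside an SE are different times and not replicates. A large difference that changed with time could therefore fail, and a smaller steady difference could pass. The list held EDN3, the third endothelin precursor, the converting enzyme relatives ECE2 and ECEL1, the peptidases MME (neprilysin, which degrades endothelins), KEL, CMA1 and MMP2, and the precursor proteases FURIN, PCSK5, PCSK6 and PCSK7. All 11 were measured and 0 of 11 were called in either fit. Their median difference was 0.04, 0.08, 0.02 and 0.18 at 2, 6, 12 and 24 h, against −0.02, −0.01, −0.0043 and 0.20 over all genes.

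Within that list ECE2 had the highest mean over 2 to 12 h. It read 5.01, 5.07, 5.04 and 5.54 on the TNF-α arrays, against 4.87, 4.87, 4.82 and 4.83 on the BSA arrays (adjusted p = 0.327 over 2, 6 and 12 h, limma). PCSK5 had the lowest, with 5.93, 5.83, 5.62 and 5.67 on the TNF-α arrays, against 6.20, 6.10, 6.29 and 6.42 on the BSA arrays (adjusted p = 0.229). The other PCSK5 probe set differed by −0.34, −0.25 and −0.76 from 2 to 12 h and by 0.71 at 24 h. Outside the rule for naming genes, FURIN and MMP2 were chosen after their values were seen. FURIN, which cuts the precursor, differed by −0.11, 0.14, 0.23 and 0.18. MMP2, at 0.04, −0.03 and −0.08 from 2 to 12 h, differed by 2.47 on the 24 h arrays. That value comes from the array with the wide GAPDH gap. Of 18239 genes, 1113 were at least 2-fold higher with TNF-α at 24 h, against 90 at 2 h.

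Of 15 genes for transcription factors and a coactivator known to act on EDN1, 2 rose and 1 fell over 2, 6 and 12 h, and none passed over the 4 times. NFKB1, the NF-κB subunit p105/p50, read 8.67, 9.45, 8.44 and 8.10 on the TNF-α arrays, against 6.16, 6.76, 6.67 and 7.09 on the BSA arrays. Its TNF-α arrays stood above all its BSA arrays, and it rose by 2.32 ± 0.18 over 2 to 12 h (SE, 3 pairs, adjusted p = 0.0171, limma; 0.368 over the 4 times).

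JUN, the core AP-1 subunit, read 8.91, 8.37, 8.002 and 6.08 on the TNF-α arrays, against 7.28, 6.84, 6.45 and 7.28 on the BSA arrays. The groups overlapped through the 24 h array, where JUN was −1.20. JUN rose by 1.57 ± 0.07 over 2 to 12 h (SE, 3 pairs, adjusted p = 0.00305, limma; 0.652 over the 4 times), with its 4 probe sets between 0.99 and 2.25 higher at those times.

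KLF2, a repressor of EDN1 in endothelial cells, read 7.09, 6.28, 5.98 and 7.25 on the TNF-α arrays, against 7.91, 7.24, 6.59 and 7.52 on the BSA arrays. The groups overlapped, while each TNF-α array was below the BSA array of its time. It fell by 0.80 over 2 to 12 h (SE 0.09, 3 pairs, adjusted p = 0.0479, limma; 0.518 over the 4 times). The other KLF2 probe set was −0.46, −0.19 and 0.30 at 2, 6 and 12 h, and the mean of both lost the call (adjusted p = 0.208).

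The other 12 regulators did not pass, and those described next were chosen after their values were seen. GATA2, whose protein binds the GATA site, differed by 0.14, 0.22, 0.18 and −0.21 at 2, 6, 12 and 24 h. HIF1A, the hypoxia-inducible subunit, differed by −0.09, 0.27, −0.0021 and 0.14, and its partner ARNT by −0.07, −0.26, −0.43 and −0.63. FOS, the AP-1 partner of JUN, lay between −0.06 and 0.13. SMAD3, which relays TGF-β signals, read 0.49, 0.86, 0.47 and 0.56 above BSA and did not pass (adjusted p = 0.137 over 2 to 12 h, limma). The list's median was 0.09, 0.21, 0.09 and −0.14.

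Downstream of the receptors, 1 of 30 measured genes of G proteins, phospholipases, kinases and their regulators rose over 2 to 12 h, and none passed over the 4 times. This was RGS3, a regulator that shortens signalling by Gq and Gi proteins, the classes the endothelin receptors use. RGS3 read 9.03, 8.43, 7.68 and 5.75 on the TNF-α arrays, against 5.29, 5.24, 5.05 and 4.72 on the BSA arrays, with no overlap. It rose by 3.19 ± 0.20 over 2 to 12 h (SE, 3 pairs, adjusted p = 0.00883, limma; 0.416 over the 4 times).

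The 4 probe sets of RGS3 split. On 2 of them the differences at 2 h were 3.73 and 3.68, and on the other 2 they were 0.03 and 0.27. The mean over the 4 probe sets was 1.49 higher over 2 to 12 h and did not pass (adjusted p = 0.0616, limma). GNAQ, the Gq subunit itself, had the lowest mean of the list, with differences of −0.18, −0.47, −0.82 and −0.36 (adjusted p = 0.237 over 2 to 12 h, limma). The list's median was −0.06, 0.08, −0.02 and 0.02 at 2, 6, 12 and 24 h.

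Of 26 measured genes of other vasoactive peptide systems, 1 rose over 2 to 12 h and none passed over the 4 times. ADM, the precursor of the vasodilator adrenomedullin, read 9.68, 10.05, 9.52 and 10.36 on the TNF-α arrays, against 9.05, 9.45, 8.85 and 9.33 on the BSA arrays. It rose by 0.64 ± 0.07 over 2 to 12 h (SE, 3 pairs, adjusted p = 0.0438, limma; 0.368 over the 4 times, and 0.0616 over 2 to 12 h with the mean of its 3 probe sets). At 24 h the 3 ADM probe sets differed by 1.03, −1.12 and 0.73. NPR3, the natriuretic peptide clearance receptor, read 6.74, 6.29, 5.87 and 5.46 on the TNF-α arrays, against 6.97, 7.56, 7.33 and 5.83 on the BSA arrays, and did not pass (adjusted p = 0.219 over 2 to 12 h, limma). The list's median stayed between 0.0038 and 0.05 from 2 to 12 h and was 0.19 at 24 h.

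**Figure D3:**
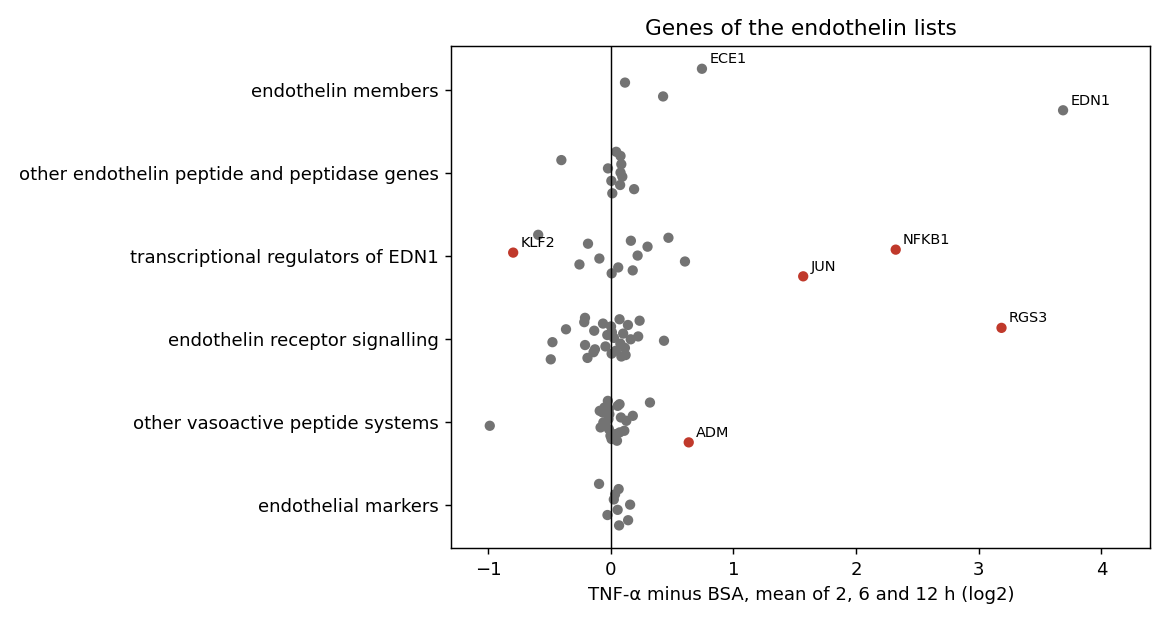
TNF-α minus BSA as the mean of 2, 6 and 12 h (log2) for each measured gene of the lists, 1 point per gene, with genes past an adjusted p of 0.05 in limma without the 24 h pair in red; the endothelin members carry no test. EDN1 at 3.69, RGS3 at 3.19, NFKB1 at 2.32 and JUN at 1.57 lie to the right of the other points, and the 9 endothelial markers lie near 0.

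Markers of endothelial cells, the classic source of endothelin-1, read mostly low, as did those of salivary acini, and differed little between treatments from 2 to 12 h. Of 9 such genes (PECAM1, CDH5, VWF, KDR, TEK, TIE1, ERG, EMCN and CLDN5) 6 had a mean under the median probe set, and 0 were called in either fit. PECAM1, VWF and TIE1 were above it. Their differences as a list lay between −0.27 and 0.27 at 2, 6 and 12 h. At 24 h they lay between 0.08 and 0.41, with a median of 0.26, against 0.20 over all genes. The mean level of the 9 endothelial markers was 3.92 to 4.02 on the TNF-α arrays and 3.78 to 3.91 on the BSA arrays. The fibroblast markers differed by −0.25 to 0.48 and the leukocyte markers by −0.24 to 0.49 at 2, 6 and 12 h, with 0 called of 6 and of 5.

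The genes whose differences ran closest to those of EDN1 were sought among all 18239 genes by the root mean square distance over the 4 times. TNFAIP2, a TNF-α-induced protein, was nearest at 0.19, with differences of 3.89, 3.94, 2.93 and 0.87 at 2, 6, 12 and 24 h. RGS3 followed at 0.58, with 3.73, 3.19, 2.63 and 1.03. CD83, TNC, ICAM1, EFNA1, IL6 and NPTX1 came next, at distances of 0.83 to 1.02. Over 2, 6 and 12 h alone TNFAIP2 was again nearest (0.21), before PTGER4 (0.52), VCAM1 (0.64), RGS3 (0.66) and NFKBIA (0.69).

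PTGER4, VCAM1 and NFKBIA were listed only in the ranking without 24 h, so their distance from EDN1 at 24 h follows from how the rankings were made. On their brightest probe sets they were 3.17, 3.86 and 3.39 higher at 24 h. EDN1 was then 0.83 higher on its brighter probe set and 2.84 on the other. Other probe sets were 0.26 higher at 24 h for PTGER4, 1.48 for VCAM1, and 2.43 and 3.42 for NFKBIA. The other PTGER4 probe set was 0.33, 0.53 and 0.27 higher at 2, 6 and 12 h. The 24 h values come from the array with the wide GAPDH gap. The distances were computed with the brighter EDN1 probe set alone. All distances use differences that share the same 8 arrays, and TNFAIP2 itself varied among its 5 probe sets, from 0.69 to 3.89 at 2 h.

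**Figure D4:**
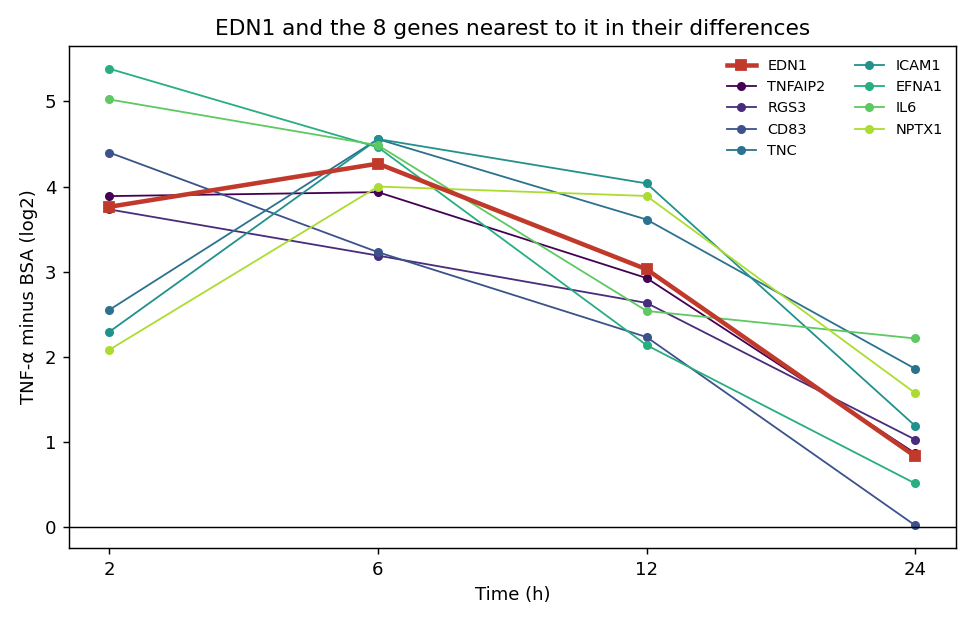
TNF-α minus BSA (log2) at 2, 6, 12 and 24 h for EDN1 on its brighter probe set (thick red line) and the 8 genes with the smallest root mean square distance from it, 1 probe set per gene. TNFAIP2 lies almost on the EDN1 line, with a distance of 0.19, and the other genes start between 2.08 and 5.38 at 2 h.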

How the data were processed

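The 8 arrays were assigned to treatment and time by their labels. Per the submitters' processing notes the authors made the deposited log2 values with RMA (background correction, quantile normalisation and a summary per probe set); the software version is not given in the sources used here. Of 49386 probe sets, 45253 had 1 gene symbol in the platform annotation, updated through Entrez identifiers against a RefSeq table, and 1327 with several symbols were left out of gene tests. Each of 18239 genes was represented by its brightest probe set, averaged over all arrays. limma 3.58.1 in R 4.3.3 (lmFit, eBayes, two-sided) tested TNF-α minus BSA with time as a factor (3 residual degrees of freedom, 2 without the 24 h pair) and the slope over log2 hours in BSA arrays (2), with Benjamini-Hochberg adjustment over all genes and a threshold of 0.05. The scripts were tested on simulated data. Arrays give no read depth, so their number limits precision. The members, gene lists, motifs and tests were chosen with earlier results of these data known. By rule, named list genes are those called, those 2-fold apart at 2, 6 and 12 h, and each list's highest and lowest mean over those times. FURIN, MMP2, GATA2, HIF1A, ARNT, FOS and SMAD3 fall outside it and were chosen after their values were seen. Alternatives were another normalisation, centring, the mean of probe sets, a filter at a mean of 5, array weights, a trended robust prior, no time term and leaving out each time.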

Additional observations from a re-analysis of the deposited data

Results flagged for a closer look

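A single reading stood apart from its group. On the dim ECE1 probe set 11737801_a_at the BSA array at 2 h read 3.621, below the BSA arrays at 6, 12 and 24 h, which read 3.69 each. The gap to its nearest neighbour was 0.933 of the group's range, above Dixon's critical value for 4 samples. The 4 arrays are different times and not replicates, 24 such groups were examined, and chance flags about 1 in 20.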

How the results depend on the processing

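The count of genes changed by TNF-α over the 4 times, 3 as reported, was 3 after another quantile normalisation and after centring. It was 1 with the mean of probe sets, 6 of 9445 genes with a mean level of at least 5, 62 with array quality weights and 5 with a trended robust prior. Leaving out 1 time gave 0 to 67 genes: 0 without the 2 h, the 6 h or the 12 h pair, and 67 without the 24 h pair. Without the 24 h pair and with the mean of probe sets, a setting chosen after seeing the data, it was 36; JUN and NFKB1 passed there, while KLF2, RGS3 and ADM did not. Without the time term that pairs the arrays, in place of the replicate block, it was 5. The count of genes with a slope in the BSA arrays was 0 under all 8 alternatives. EDN1 averaged 2.97 higher over the 4 times, and 2.54 to 3.69 when 1 time was left out. ECE1 and EDN2 differences kept their direction at 6 and 12 h under each alternative normalisation and with the mean of probe sets. With that mean ECE1 was 0.72 and 0.98 higher at 6 and 12 h, both under 2-fold. EDN2 at 24 h moved to 0.44 after another quantile normalisation. EDN1 at 24 h, 0.83 as deposited, was 1.84 with the mean of its probe sets. ECE1 at 24 h, 0.04 as deposited, was 0.33 after another quantile normalisation and −0.04 with the mean of its probe sets. EDNRB became −0.0667 at 12 h and 0.17 at 24 h with the mean of its probe sets, and the cause was not tested. The median gene at 24 h was 0.20 higher as deposited, 0.19 after centring and 0.185 after another quantile normalisation. Dim readings limit EDNRB throughout and EDN1 on the BSA arrays.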
